A study of Mus musculus with 19 samples.

Results

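The high endothelial cells (HEC) of the mouse mesenteric lymph nodes were profiled in 2 sort gates. A double-positive gate, titled MAdCAM1+/PNAd+, gave arrays 1 and 2, and a gate titled MAdCAM1+ gave arrays 3 and 4. These 4 arrays of the 19 in the series were chosen by their titles, and double-positive was compared with MAdCAM1+ over the 19938 genes measured by probe sets with a single gene symbol. The titles do not say whether PNAd-positive cells had been removed from the MAdCAM1+ gate. All groups came from Balb/c mice aged 6 to 8 weeks, as an equal mix of males and females, with no genetic change or treatment in the labels. Reference groups were HEC of peripheral lymph nodes (4 arrays), HEC of Peyer's patches (3 arrays) and capillary endothelial cells of the mesenteric nodes (2 arrays). The labels do not say whether arrays of a group came from separate sorts, so p-values measure the spread between these arrays, which may be technical.

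High endothelial venules are the vessels through which lymphocytes enter lymph nodes and Peyer's patches from the blood. PNAd, the peripheral node addressin, is a set of sialomucins carrying sulfated, sialylated and fucosylated sugar chains that L-selectin on lymphocytes binds. MAdCAM1, the mucosal addressin, is a protein of gut-associated venules bound by the gut-homing integrin of lymphocytes, and mesenteric nodes are known to display both addressins.

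The deposited log2 signals were centred by probe set, so a value shows how an array stands relative to the others for that gene and not how abundant or detected its transcript was. Array medians over the 28856 probe sets ran from -0.034 to 0.061. On the 9 measured HEC markers, which include Glycam1, Madcam1 and Fut7, the mean log2 signal was 3.29 to 3.47 in the 4 mesenteric HEC arrays, 3.06 to 3.25 in the reference HEC arrays and -0.28 to -0.25 in mesenteric capillary cells. On the 15 pan-endothelial markers the 4 arrays lay at 0.08 to 0.17 and mesenteric capillary cells at 0.44 to 0.45. MAdCAM1+ array 3 stood apart on some transcripts. It had a mean of 2.16 over 11 pancreatic digestive enzyme genes, a group chosen after their values were seen, against -0.18 to 0.57 in the other 18 arrays. Among the references, peripheral HEC array 1 lay far from its group on a few genes, such as Lpl (0.22 against 3.15 to 3.56) and Lyve1 (1.67 against 3.23 to 3.60). Arrays that shared a place in the numbering were also more alike across gates than within them. Taken over genes, the SD of the difference between double-positive array 1 and MAdCAM1+ array 3 was 0.178, and that between double-positive array 2 and MAdCAM1+ array 4 was 0.193. Within a gate it was 0.238 for the double-positive pair and 0.247 for the MAdCAM1+ pair.

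Of the 19938 genes, 4 differed between the gates in limma's moderated test at an adjusted p under 0.05 (0.0201% of genes), and all 4 were lower in the double-positive gate. They were Myof, Cytl1, Fbln2 and Tacr1, each more than 2-fold lower. No gene was called higher in the double-positive gate (0%), where 171 genes had an unadjusted p under 0.05 and a positive difference (0.858%). A further 164 genes had an unadjusted p under 0.05 and a negative one (0.823%), the 4 called genes included. Together these were 335 genes (1.68%), a smaller share than the threshold of 0.05 itself. The counts alone thus show no differences beyond the 4 called genes. The median difference over all genes was 0.01. In bulk RNA from sorted cells, fewer cells of a type and less RNA per cell cannot be told apart.

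**Figure D1:**
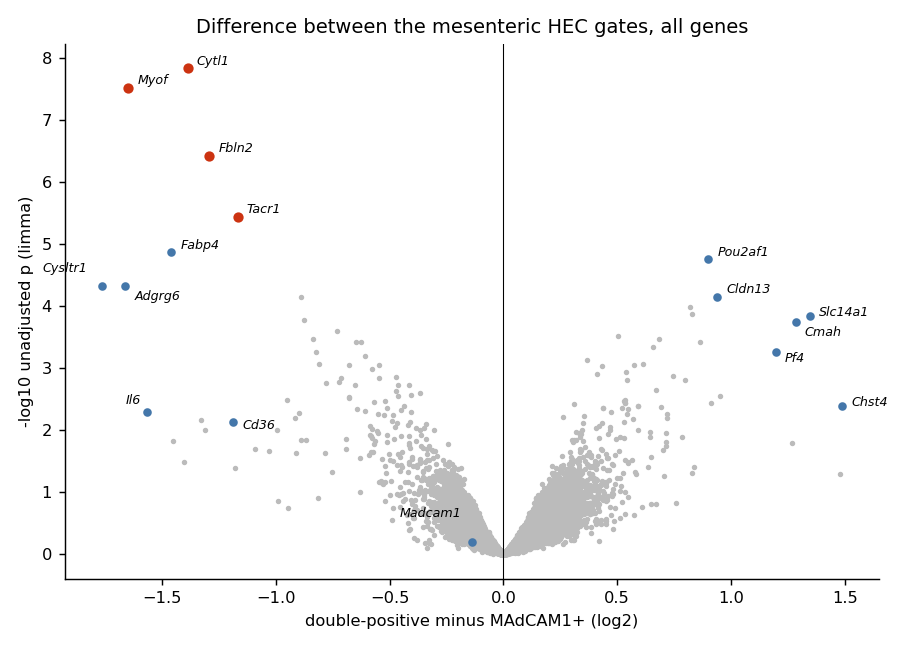
Difference between the gates (double-positive minus MAdCAM1+, log2, horizontal) against -log10 of the unadjusted p of limma's test (vertical) for each of 19938 genes. Red points are the 4 genes with an adjusted p under 0.05, all on the left, blue points are labelled genes that did not pass, and grey points are the rest.

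Because the 4 called genes carry the only differences that passed the test and all moved the same way, the 250 bases before each annotated start are shown, from RefSeq on assembly GRCm38.p6. All 4 were found in the promoter table. Capitals mark matches on either strand to any of 6 motifs, which were AGGAAG for ETS factors, AGATAA for zinc finger factors of the GATA family, TGAGTCA for AP-1, CAAGTG for NKX2 factors, GGGCGG for the GC box and TATAAA for the TATA box. None of these motifs overlapped another in these windows.
Myof, chr19:38043578-38043827, minus strand: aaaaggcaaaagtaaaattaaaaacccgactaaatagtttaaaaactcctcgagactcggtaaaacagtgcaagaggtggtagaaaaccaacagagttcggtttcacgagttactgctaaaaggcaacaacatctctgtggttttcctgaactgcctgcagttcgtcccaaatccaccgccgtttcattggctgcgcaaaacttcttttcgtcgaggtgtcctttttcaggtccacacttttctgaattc
Cytl1, chr5:37735269-37735518, plus strand: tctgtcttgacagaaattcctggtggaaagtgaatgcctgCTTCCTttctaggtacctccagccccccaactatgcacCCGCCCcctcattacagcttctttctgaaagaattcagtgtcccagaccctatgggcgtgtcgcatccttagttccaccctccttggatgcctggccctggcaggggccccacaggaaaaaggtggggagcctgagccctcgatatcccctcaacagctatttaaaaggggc
Fbln2, chr6:91212514-91212763, plus strand: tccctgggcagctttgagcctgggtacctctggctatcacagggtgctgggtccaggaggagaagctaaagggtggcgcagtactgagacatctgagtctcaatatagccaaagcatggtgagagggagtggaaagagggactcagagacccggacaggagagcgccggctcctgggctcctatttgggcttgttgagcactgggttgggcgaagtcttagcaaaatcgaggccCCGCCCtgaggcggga
Tacr1, chr6:82402225-82402474, plus strand: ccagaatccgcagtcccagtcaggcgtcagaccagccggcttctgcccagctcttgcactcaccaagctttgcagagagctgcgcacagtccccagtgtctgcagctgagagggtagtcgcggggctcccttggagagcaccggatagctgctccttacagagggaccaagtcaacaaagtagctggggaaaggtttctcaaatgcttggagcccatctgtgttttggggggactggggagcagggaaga
The Cytl1 window held 1 ETS core match, 210 bases before the start, and 1 GC box, 172 bases before it. The Fbln2 window held 1 GC box, 16 bases before the start. Neither the Myof nor the Tacr1 window held any of the 6 motifs. Among 32851 RefSeq windows of this length, 29.5% held the ETS core, 32.7% the GC box, 12.4% the TATA box, 11.6% the NKX2 core, 9.99% the GATA core and 4.46% the AP-1 motif. No motif was shared by all 4 windows.

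Myof encodes myoferlin, a membrane protein of the ferlin family involved in membrane repair and endothelial growth factor receptor stability. Its log2 signal was -0.63 and -0.94 in the double-positive arrays and 0.73 and 0.99 in the MAdCAM1+ arrays. It lay between -0.71 and -0.55 in peripheral HEC and between 0.68 and 1.26 in Peyer's patch HEC. The gates did not overlap, and each gate lay beside another tissue's HEC. The difference was -1.65 ± 0.17 (SE, limma, n = 2 and 2, adjusted p = 0.000296), with the MAdCAM1+ gate 3.13-fold higher. The double-positive gate stood 1.79 below Peyer's patch HEC (-1.79 ± 0.16, adjusted p = 1.16e-05 by limma), and the MAdCAM1+ gate stood 1.48 ± 0.15 above peripheral HEC (adjusted p = 1.7e-05 by limma). The other 2 contrasts did not pass, at -0.16 ± 0.15 for double-positive minus peripheral HEC and -0.14 ± 0.16 for MAdCAM1+ minus Peyer's patch HEC. Mesenteric capillary cells were lower than both gates, at -2.19 and -2.01.

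Cytl1 encodes a small secreted cytokine-like protein. It read -0.42 and -0.24 in the double-positive arrays against 1.11 and 0.99 in the MAdCAM1+ arrays. Peripheral HEC ran from -0.50 to -0.19 and Peyer's patch HEC from 0.59 to 1.00. The gates thus fell on either side of the mesenteric capillary arrays, at 0.16 and 0.29. The gate difference was -1.39 ± 0.14 (SE, limma, n = 2 and 2, adjusted p = 0.000287), 2.61-fold. As for Myof, the double-positive gate differed from Peyer's patch HEC (-1.18 ± 0.12, limma adjusted p = 0.000125) and the MAdCAM1+ gate from peripheral HEC (1.40 ± 0.12, limma adjusted p = 3.25e-06). Double-positive minus peripheral HEC was 0.02 ± 0.12, and MAdCAM1+ minus Peyer's patch HEC was 0.20 ± 0.12, neither of which passed. The calls of Myof and Cytl1 held without any 1 of the 4 arrays, at limma adjusted p-values of 0.00293 to 0.0199 for Myof and 0.000477 to 0.00998 for Cytl1.

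Fbln2 encodes fibulin 2, an extracellular matrix protein of basement membranes and elastic fibres. Its values were -0.27 and -0.52 in the double-positive gate and 0.90 and 0.88 in the MAdCAM1+ gate. Both reference HEC groups lay between -0.27 and 0.37, and mesenteric capillary cells lay at 0.77 and 0.92. The MAdCAM1+ arrays therefore stood level with capillary cells and above every reference HEC array. The gate difference was -1.29 ± 0.16 (SE, limma, n = 2 and 2, adjusted p = 0.00249). The MAdCAM1+ gate was higher than peripheral HEC by 0.84 ± 0.14 (limma adjusted p = 0.00217) and than Peyer's patch HEC by 0.90 ± 0.15 (limma adjusted p = 0.00682). Without double-positive array 2 the call of Fbln2 was lost (limma adjusted p = 0.0838), as it was with only the 11 HEC arrays in the fit (limma adjusted p = 0.0535).

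Tacr1 encodes the receptor of the neuropeptide substance P. It read -0.14 and 0.20 in the double-positive arrays and 1.02 and 1.37 in the MAdCAM1+ arrays. Peripheral HEC ran from -0.23 to 0.00, Peyer's patch HEC from 0.27 to 0.51 and mesenteric capillary cells from -0.28 to -0.10. The MAdCAM1+ arrays were the highest of all 19 arrays for this gene, and the gates did not overlap. The gate difference was -1.17 ± 0.17 (SE, limma, n = 2 and 2, adjusted p = 0.0178). The MAdCAM1+ gate was higher than peripheral HEC by 1.35 ± 0.15 (limma adjusted p = 5.35e-05) and than Peyer's patch HEC by 0.80 ± 0.16 (limma adjusted p = 0.0296). Neither contrast of the double-positive gate with a reference HEC group passed. The Tacr1 call was lost without double-positive array 1 (limma adjusted p = 0.515) and without MAdCAM1+ array 4 (limma adjusted p = 0.167). A fit of the 4 mesenteric HEC arrays alone, with 2 residual degrees of freedom, called no gene (lowest limma adjusted p = 0.184, 572 genes at an unadjusted p under 0.05).

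**Figure D2:**
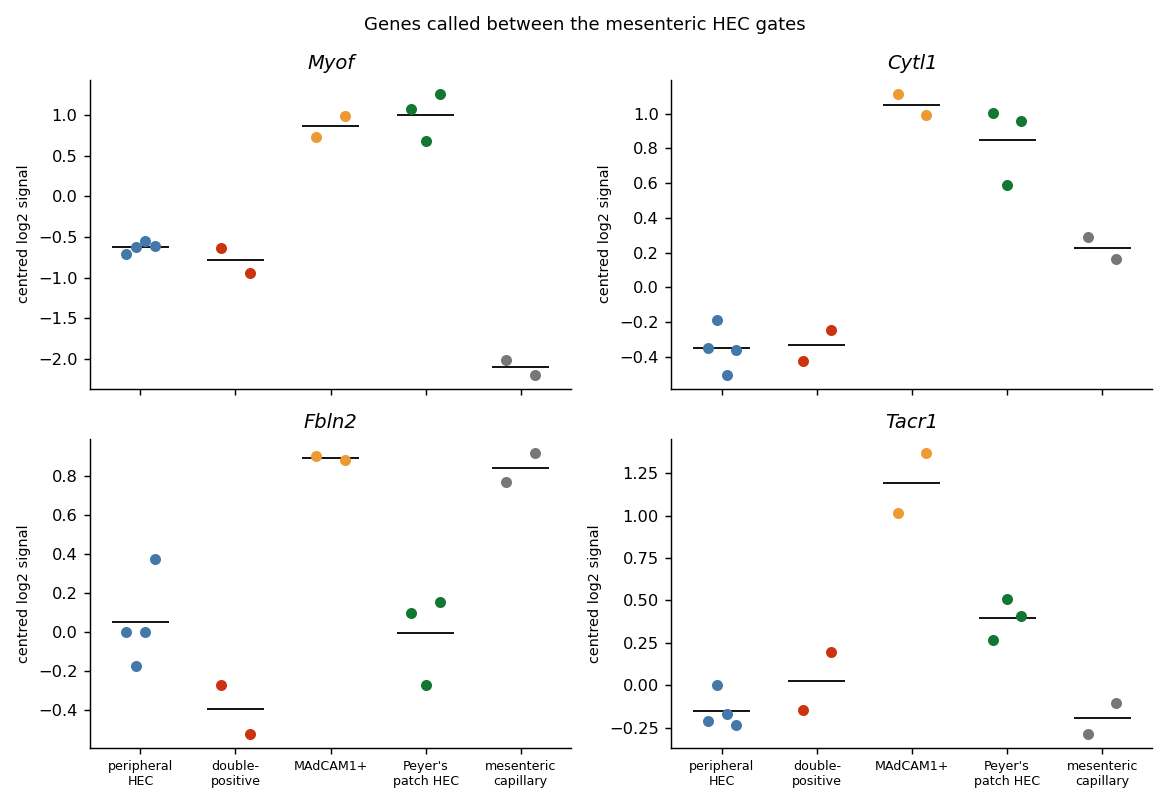
Centred log2 signal (vertical) of Myof, Cytl1, Fbln2 and Tacr1 in each array of peripheral HEC, both mesenteric HEC gates, Peyer's patch HEC and mesenteric capillary cells. Points are arrays and lines are group means, and in each panel the 2 MAdCAM1+ arrays lie above the 2 double-positive arrays.

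The proteins named by the gates came first among the genes of known role. Madcam1 read 5.45 and 5.34 in the double-positive arrays and 5.62 and 5.45 in the MAdCAM1+ arrays, beside 5.60 to 5.75 in Peyer's patch HEC and 1.73 to 2.55 in peripheral HEC. Both gates thus lay with Peyer's patch HEC and far above peripheral HEC. The gate difference was -0.14 ± 0.28, with a 95% interval of -0.73 to 0.45. Nkx2-3, a transcription factor of gut-associated endothelium, read 1.62 and 0.99 against 1.64 and 1.12, a difference of -0.07 ± 0.22 (95% interval -0.54 to 0.40). Glycam1, a mucin released by HEC that bears ligands for L-selectin, lay between 4.81 and 5.07 in all 4 arrays, with a difference of -0.14 ± 0.61 (95% interval -1.43 to 1.16). Cd34, another carrier, differed by 0.01 ± 0.17. None of the 8 measured sialomucin carriers was called. Their median difference was -0.08 and the largest was that of Parm1, a mucin-like membrane protein, at 0.54 ± 0.17 (unadjusted p = 0.00537, limma adjusted p = 1).

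The enzymes that build the L-selectin ligand sugar chains leaned towards the double-positive gate without a call. Of 20 measured genes of this synthesis, 0 were called, 17 had a difference above 0 and the median was 0.15, where 54.8% of all genes lay above 0 with a median of 0.01. The arrays of the 2 gates did not overlap in 7 of the 20, with the double-positive gate above, against 15.6% of all genes. Their mean log2 signal was 1.11 and 1.06 in the double-positive arrays and 0.89 and 0.82 in the MAdCAM1+ arrays. It ran from 1.16 to 1.22 in peripheral HEC and from 0.57 to 0.83 in Peyer's patch HEC. The double-positive arrays were thus nearer to peripheral HEC on this list, whose genes were chosen with earlier results of these data known. These sugar chains are part of PNAd, which the title of the double-positive gate names, so the list is not independent of the sort.

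Chst4 had the largest positive difference of any gene. It encodes the sulfotransferase that adds the sulfate recognised by L-selectin and by antibodies to PNAd. It read 5.38 and 5.67 in the double-positive arrays, 3.90 and 4.18 in the MAdCAM1+ arrays, 5.91 to 6.13 in peripheral HEC and 1.69 to 2.11 in Peyer's patch HEC. The 4 HEC groups did not overlap and stood in the order peripheral, double-positive, MAdCAM1+ and Peyer's patch. The gate difference was 1.49 ± 0.45, with a 95% interval of 0.54 to 2.43 (unadjusted p = 0.00403, limma adjusted p = 1), and the double-positive gate was 2.8-fold higher. The SE is shared by all 7 groups, and the peripheral capillary arrays spread from -0.15 to 2.19 for this gene, an SD of 1.21 against 0.09 in peripheral HEC. With only the 11 HEC arrays in the fit the same difference passed, at a limma adjusted p of 0.00919. Against the references, the MAdCAM1+ gate was lower than peripheral HEC by 2.01 on the log2 scale (-2.01 ± 0.39, limma adjusted p = 0.00858) and higher than Peyer's patch HEC by 2.11 ± 0.41 (limma adjusted p = 0.0258). The double-positive gate was higher than Peyer's patch HEC by 3.60 ± 0.41 (limma adjusted p = 0.000197), and its contrast with peripheral HEC did not pass (-0.52 ± 0.39).

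The other enzymes differed less. B3gnt3, which extends the core chain that carries the sulfated sugar, read 1.09 and 0.78 in the double-positive gate and 0.49 and 0.32 in the MAdCAM1+ gate (difference 0.53 ± 0.16, 95% interval 0.20 to 0.86, limma adjusted p = 1). Chst2, a second sulfotransferase of this pathway, differed by 0.40 ± 0.17, and Gmds, which starts the synthesis of the fucose donor, by 0.41 ± 0.20. The branching enzyme Gcnt1 differed by 0.31 ± 0.27 and the fucosyltransferase Fut7 by 0.17 ± 0.22. Fut7 was at -0.12 after a further quantile normalization and Gcnt1 at -0.01 without MAdCAM1+ array 4, so no direction is given for these 2 genes.

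**Figure D3:**
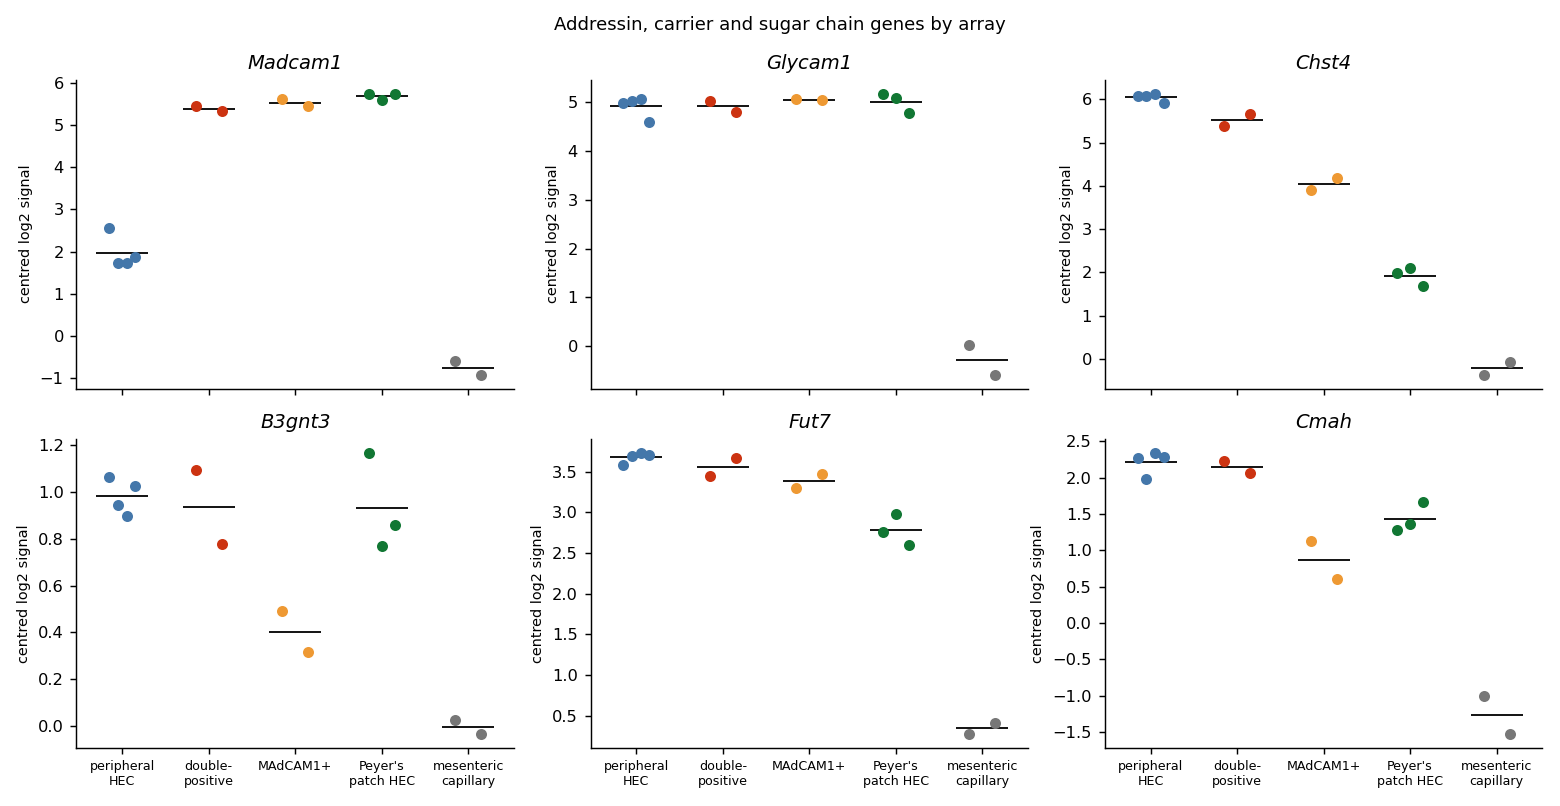
Centred log2 signal (vertical, scaled for each panel) of 6 addressin, carrier and sugar chain genes in each array of peripheral HEC, both mesenteric HEC gates, Peyer's patch HEC and mesenteric capillary cells. Points are arrays and lines are group means. Madcam1 and Glycam1 lie level in both gates, while the double-positive arrays lie above the MAdCAM1+ arrays for Chst4 (5.38 and 5.67 against 3.90 and 4.18), B3gnt3 and Cmah.

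Among enzymes of sialic acid chemistry, Cmah and St6gal1 went opposite ways. Cmah converts sialic acid to the glycolyl form that mouse CD22, a receptor of B cells, binds best. It read 2.23 and 2.07 in the double-positive arrays and 1.12 and 0.60 in the MAdCAM1+ arrays, with 1.99 to 2.34 in peripheral HEC and 1.28 to 1.67 in Peyer's patch HEC. The MAdCAM1+ arrays were the lowest HEC arrays and the double-positive arrays lay within the range of peripheral HEC. The gate difference of 1.28 ± 0.27 did not pass (unadjusted p = 0.000175, limma adjusted p = 0.233), while the MAdCAM1+ gate was lower than peripheral HEC by 1.36 on the log2 scale (-1.36 ± 0.23, limma adjusted p = 0.00292). St6gal1, which attaches the sialic acid that CD22 binds, read 0.06 and 0.05 against 0.71 and 0.53. Peyer's patch HEC ran from 0.56 to 1.27 and peripheral HEC from -0.71 to -0.44 for St6gal1. The gate difference was -0.57 ± 0.17 (unadjusted p = 0.00352, limma adjusted p = 1). The double-positive gate was lower than Peyer's patch HEC (-0.83 ± 0.15, limma adjusted p = 0.0108) and the MAdCAM1+ gate higher than peripheral HEC (1.18 ± 0.14, limma adjusted p = 0.000154). The list of mucosal addressin and sialic acid genes, which also held Madcam1 and Nkx2-3, had 12 measured genes. Of these 0 were called and 8 had a difference above 0, with a median of 0.04. Madcam1 and Nkx2-3 were among the 4 genes below 0.

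Among receptors on the vessel and the molecules that arrest lymphocytes, no member was called. E-selectin (Sele), which supports rolling, read 2.29 and 2.11 in the double-positive arrays and 2.71 and 2.66 in the MAdCAM1+ arrays (difference -0.49 ± 0.34, 95% interval -1.21 to 0.24). Vcam1 and Icam1, ligands of leukocyte integrins, differed by 0.17 ± 0.28 and -0.02 ± 0.24. Ackr1, an atypical chemokine receptor that marks venules, differed by -0.19 ± 0.24, and Ackr2, a chemokine scavenger, by 0.45 ± 0.24. The medians of the 14 adhesion genes, 19 chemokines and 17 genes of lymphotoxin and NF-kB signalling lay between -0.02 and 0.00. Cxcl12, a chemokine of capillary and stromal cells, was at -3.64 and -4.08 against -3.59 and -3.37, a difference of -0.38 ± 0.17 that did not pass.

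The lower side of the contrast held further receptors whose values in the MAdCAM1+ gate lay towards Peyer's patch HEC, none of them called in the full fit. Cysltr1, a receptor for cysteinyl leukotrienes, had the most negative difference of any gene. It read 1.11 and 0.49 in the double-positive arrays, 2.36 and 2.77 in the MAdCAM1+ arrays, 2.61 to 3.30 in Peyer's patch HEC and -0.17 to 0.53 in peripheral HEC. The gates did not overlap, and the difference was -1.76 ± 0.32 (unadjusted p = 4.74e-05, limma adjusted p = 0.118). With array weights Cysltr1 passed (limma adjusted p = 0.0392), as it did with a filter on range (0.0218). Adgrg6, an adhesion G protein-coupled receptor, read -0.81 and -0.50 against 0.48 and 1.54, a difference of -1.66 ± 0.30 (limma adjusted p = 0.118). Adgrg6 passed after a further quantile normalization (limma adjusted p = 0.0328), with array weights (0.0215) and with a filter on range (0.0218). Without MAdCAM1+ array 3 its difference was -2.19. For both genes the double-positive gate was lower than Peyer's patch HEC (-2.04 ± 0.30 and -2.48 ± 0.28, limma adjusted p = 0.00145 and 0.000189) and the MAdCAM1+ gate higher than peripheral HEC (2.41 ± 0.28 and 1.63 ± 0.26, limma adjusted p = 8.45e-05 and 0.00199). Cmklr1, the chemerin receptor, read -0.73 and -0.78 against 0.08 and 0.19, and the leptin receptor gene Lepr -0.24 and 0.04 against 0.54 and 1.17. Their differences were -0.89 ± 0.17 (limma adjusted p = 0.142) and -0.95 ± 0.28 (limma adjusted p = 1). Cmklr1 passed with array weights (limma adjusted p = 0.0202). Mgst1, a microsomal glutathione transferase, differed by -0.90 ± 0.28 and did not pass. Unlike these receptors, its MAdCAM1+ arrays (0.00 and 0.01) lay above Peyer's patch HEC (-0.78 to -0.18) and within the range of peripheral HEC (-0.51 to 0.40).

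Other genes near the top of the list on the double-positive side lay towards peripheral HEC. Slc14a1, a urea transporter, read 1.26 and 1.39 in the double-positive arrays, -0.04 and 0.00 in the MAdCAM1+ arrays, 1.94 to 2.50 in peripheral HEC and -1.16 to -0.71 in Peyer's patch HEC. Its difference was 1.34 ± 0.27 (limma adjusted p = 0.223, and 0.0491 with only the 11 HEC arrays). The gates again did not overlap and lay in order between the 2 other tissues. Pf4, a platelet chemokine, read 1.88 and 1.86 against 0.72 and 0.62, with 2.86 to 4.02 in peripheral HEC and 0.27 to 0.46 in Peyer's patch HEC (difference 1.20 ± 0.28, limma adjusted p = 0.427). The other 4 measured platelet and erythroid markers differed by 0.06 or more without a call. The share of platelet RNA in the Pf4 difference was not tested. Cldn13, a claudin, differed by 0.94 ± 0.18 (limma adjusted p = 0.142) and Pde1c, a phosphodiesterase of cyclic nucleotides, by 0.82 ± 0.16 (limma adjusted p = 0.184).

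Some genes broke that order. Pou2af1, a transcriptional coactivator best known from B cells, read 3.13 and 2.75 in the double-positive arrays, which were the highest of all 19 arrays, and 2.20 and 1.87 in the MAdCAM1+ arrays. Peyer's patch HEC ran from 2.10 to 2.41 and peripheral HEC from 1.05 to 1.25. The difference was 0.90 ± 0.15 (unadjusted p = 1.73e-05, limma adjusted p = 0.0574). It passed with double-positive array 1 paired with MAdCAM1+ array 3 and array 2 with array 4, a pairing chosen after seeing the data (limma adjusted p = 0.0121), and with array weights (0.0195). Of the 11 measured B cell markers, Pou2af1 included, the gate difference was 0 or above in each, with a median of 0.13, and 0 were called. Their mean log2 signal was 0.81 and 0.80 in the double-positive arrays, 0.65 and 0.48 in the MAdCAM1+ arrays, 0.63 to 0.85 in peripheral HEC and 0.41 to 0.45 in Peyer's patch HEC. The part of B cell RNA in these differences was not tested. Bpifb5, a secreted lipid-binding protein of the BPI family, read 3.77 and 3.80 against 2.74 and 3.10, and Lcp2, an adaptor of immune receptor signalling, 0.31 and 0.21 against -0.42 and -0.72. For both, the double-positive arrays lay within the range of the other HEC groups and the MAdCAM1+ arrays below it. For Lcp2 this range reached the double-positive arrays only through peripheral HEC array 2 (0.41), as the other reference HEC arrays ran from -0.04 to 0.17. Their differences of 0.86 ± 0.19 and 0.83 ± 0.17 did not pass (limma adjusted p = 0.338 and 0.217). Chil5, Gja4, Mtss1, Tnfrsf9, Atp1b1 and St8sia6 completed the 15 genes named on this side, with differences between 0.69 and 0.91, each at a limma adjusted p of 0.728 or above except Mtss1 at 0.709. Of these, Mtss1 and Atp1b1 kept the order peripheral, double-positive, MAdCAM1+ and Peyer's patch HEC.

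How near each gate lay to either tissue was then measured over many genes. A set of 210 genes was taken from peripheral and Peyer's patch HEC alone (limma adjusted p under 0.05 and at least 2-fold apart), with 73 higher in Peyer's patches and 137 higher in peripheral nodes. On a scale where 0 is the peripheral mean and 1 the Peyer's patch mean, the median gene stood at 0.47 and 0.50 in the double-positive arrays and at 0.67 and 0.66 in the MAdCAM1+ arrays. Both gates therefore lay between the tissues, with the MAdCAM1+ arrays nearer to Peyer's patch HEC. The means were 0.49 ± 0.02 and 0.66 ± 0.01 (SD, n = 2 each), a difference of -0.18. The two-sided exact permutation test gave p = 0.333, the smallest value that 2 arrays against 2 allow. The order was the same in 12 of 12 alternative settings, with differences from -0.19 to -0.14. Mesenteric capillary cells stood at 0.52 and 0.42 on the same genes, so capillary cells of the same nodes had a middle position too.

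Tissue genes of both directions leaned the same way. Over all 19938 genes, 10933 were higher in the double-positive gate (54.8%) and 9005 were lower. Among the 73 genes higher in Peyer's patch HEC, 49 were lower in the double-positive gate (median difference -0.07), and the positions were 0.35 and 0.25 against 0.47 and 0.47. Among the 137 genes higher in peripheral HEC, 103 were higher in the double-positive gate (75.2%, median difference 0.24), and the positions were 0.51 and 0.58 against 0.71 and 0.74. For these genes mesenteric capillary cells stood at 0.14 and 0.10 in the first group and 0.87 and 0.84 in the second. The second group held the B cell markers Fcer2a and Ms4a1 and the platelet chemokine Pf4, and the first held Pou2af1. Genes of gut epithelium, such as Lgals4, Muc2, Olfm4 and Zg16, were also in the first group. Double-positive and MAdCAM1+ means were -0.01 and 0.04 for Muc2 and 0.06 and -0.09 for Olfm4. They were -0.3 and -0.19 for Lgals4 and -0.05 and 0.9 for Zg16, none of which was called. The part of B cell, platelet and gut epithelial RNA in the positions was not tested. In all, 152 of the 210 genes (72.4%) differed between the gates in the peripheral direction for the double-positive gate, against 63% of the other 19728 genes. An unadjusted p under 0.05 was found for 52 of the 210 (24.8%, against 1.43% of the others), 42 of them in that direction. Among the others, 204 of the 283 genes at such a p also went in that direction. The 210 genes were chosen on arrays that also enter the shared SE of the gate contrast. The choice favours genes with a small spread, so these shares are a description and not an independent test. Across the 210 genes the gate difference and the tissue difference had a Pearson r of -0.49 and a Spearman rho of -0.45, given as a description because genes of the same arrays are not independent. Myof and Cytl1 were the only 2 of the 210 genes called between the gates.

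**Figure D4:**
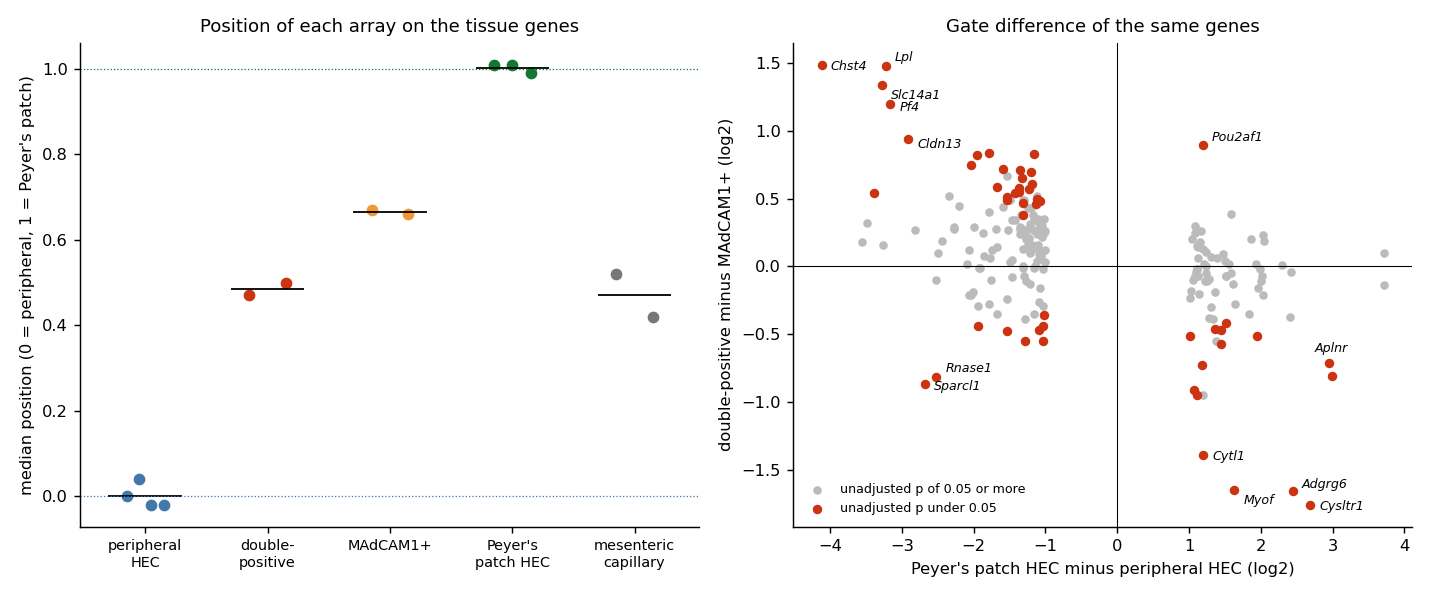
Left, the median position of each array over 210 tissue genes (vertical, 0 is the peripheral HEC mean and 1 the Peyer's patch HEC mean), with lines at group means. The double-positive arrays lie at 0.47 and 0.50 and the MAdCAM1+ arrays at 0.67 and 0.66. Right, the gate difference (double-positive minus MAdCAM1+, log2, vertical) against the tissue difference (Peyer's patch minus peripheral HEC, log2, horizontal) for the same genes, with red points for an unadjusted p under 0.05.

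A second scale asked how far each gate stood from capillary cells. On 626 genes that separated HEC from capillary cells in both peripheral nodes and Peyer's patches, with 0 at the mesenteric capillary mean and 1 at the mean span of those 2 tissues, the double-positive arrays stood at 1.06 and 1.01. The MAdCAM1+ arrays stood at 1.00 and 0.91. Peripheral HEC arrays ran from 1.02 to 1.11 and Peyer's patch HEC arrays from 0.95 to 1.06, so MAdCAM1+ array 4 was the lowest HEC array. The gate means were 1.04 ± 0.03 and 0.96 ± 0.06 (SD, n = 2 each), a difference of 0.08 (exact permutation p = 0.333, the smallest possible). The same order was seen in 12 of 12 alternative settings, from 0.04 to 0.09, all of which again kept the same 4 gate arrays. Of the 324 genes higher in HEC, 254 were higher in the double-positive gate (78.4%, median 0.16), and of the 302 genes higher in capillary cells, 197 were lower in it (median -0.08). Together 72% of the 626 differed in the HEC direction, against 59.4% of the other 19312 genes. None of the 626 was called.

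The capillary markers themselves lay lower in the double-positive gate without a call. Their mean log2 signal over 10 genes was -0.65 and -0.59 in the double-positive arrays, -0.44 and -0.32 in the MAdCAM1+ arrays and 3.56 to 3.69 in mesenteric capillary cells. It ran from -0.57 to -0.37 in peripheral HEC and from -0.68 to -0.47 in Peyer's patch HEC. MAdCAM1+ array 3 thus lay within the range of the reference HEC arrays and array 4 slightly above it. Fabp4, a fatty acid binding protein of capillaries, read -0.05 and -0.43 against 1.22 and 1.21, with 3.09 and 3.26 in capillary cells (difference -1.46 ± 0.24, limma adjusted p = 0.0534). It passed after a further quantile normalization (limma adjusted p = 0.0153), with array weights (0.02) and with a filter on range (0.0131). Fabp4 ran from 0.00 to 1.15 in peripheral HEC and from 0.22 to 0.51 in Peyer's patch HEC. Cd36, a fatty acid transporter of capillaries, read -0.75 and -0.41 against -0.09 and 1.30, a difference of -1.19 ± 0.39 (limma adjusted p = 1), with MAdCAM1+ array 3 nearer than array 4 to the double-positive arrays. Peripheral HEC ran from -1.03 to 0.18 and Peyer's patch HEC from 0.27 to 1.16 for Cd36. The part of capillary RNA in the lower genes was not tested. Fabp5 differed by -0.87 ± 0.32, while Lpl, which encodes lipoprotein lipase, went the other way, at 2.64 and 2.89 against 1.19 and 1.39 (difference 1.48 ± 0.70, limma adjusted p = 1). For Lpl peripheral HEC array 1 read 0.22 and the other 3 arrays 3.15 to 3.56, so both gates lay above the former and below the latter. Of the 16 measured genes of capillary fatty acid uptake, 10 were lower in the double-positive gate and the median was -0.12.

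Lists of vessel type, stimulus response and growth factor signalling were read next. Of 9 measured venous genes 7 were lower in the double-positive gate (median -0.16). Vwf, the clotting factor carrier stored by endothelium, read 0.69 and 1.43 against 1.77 and 2.18 (-0.91 ± 0.29, limma adjusted p = 1). Aplnr, the apelin receptor, differed by -0.71 ± 0.19 (limma adjusted p = 0.709). Neither venous gene passed. Of 23 immediate-early and heat shock genes, which respond to handling and stimulation, 19 were lower (median -0.12). Nr4a1, an orphan nuclear receptor of that group, read -1.14 and -1.51 against -0.60 and -0.80 (-0.63 ± 0.14, limma adjusted p = 0.338), and Egr3 differed by -0.47 ± 0.16. Il6, an inflammatory cytokine, read -1.33 and -1.63 against -0.12 and 0.30, with 1.69 to 2.11 in mesenteric capillary cells (-1.56 ± 0.48, limma adjusted p = 1). Of 17 TGF-beta and BMP genes 12 were lower (median -0.12), with Bmp4, a secreted growth factor, at -0.69 ± 0.25 and Ltbp4, a latency protein, at -0.48 ± 0.15. The arterial and Notch list had a median of -0.04 over 19 genes, with Gja4, an arterial gap junction protein, at 0.80 ± 0.21 and Nrp1, a co-receptor of VEGF, at -0.47 ± 0.13. The venous factor Nr2f2, the arterial connexin gene Gja5 and the pan-endothelial adhesion gene Pecam1 differed by -0.04 ± 0.19, -0.10 ± 0.22 and -0.08 ± 0.12. None of these lists had a called member.

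The biosynthetic lists had more differences above 0 than the 54.8% of all genes, by small amounts. Of 41 measured genes for secretion and for the unfolded protein response, 39 had a difference above 0, with a median of 0.11 and a range of -0.08 to 0.32. Hyou1, a chaperone of the endoplasmic reticulum, had a difference of 0.32 ± 0.16. The arrays' means on this list were 0.53 and 0.48 in the double-positive gate, 0.39 and 0.35 in the MAdCAM1+ gate, 0.32 to 0.49 in peripheral HEC and 0.09 to 0.50 in Peyer's patch HEC. Of 26 genes that make cholesterol and fatty acids, 22 were above 0 (median 0.10), and of 34 cell cycle genes 24 were (median 0.11). The cell cycle means of the arrays overlapped between the gates, at 0.12 and -0.06 in the double-positive arrays and -0.01 and -0.11 in the MAdCAM1+ arrays, while those of the cholesterol and fatty acid list were 0.56 and 0.51 against 0.48 and 0.38. Again 0 genes of these lists were called. The remaining lists (angiogenesis, basement membrane, retinoic acid, interferon response, endothelial transcription factors, lysolipid and oxysterol genes, atypical chemokine receptors and MHC class II) had medians between -0.16 and 0.04. In the basement membrane list Col18a1, the collagen chain that releases endostatin, differed by 0.43 ± 0.11 (limma adjusted p = 0.555), and in the retinoic acid list Dhrs3, a retinaldehyde reductase, by -0.44 ± 0.13 (limma adjusted p = 1).

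**Figure D5:**
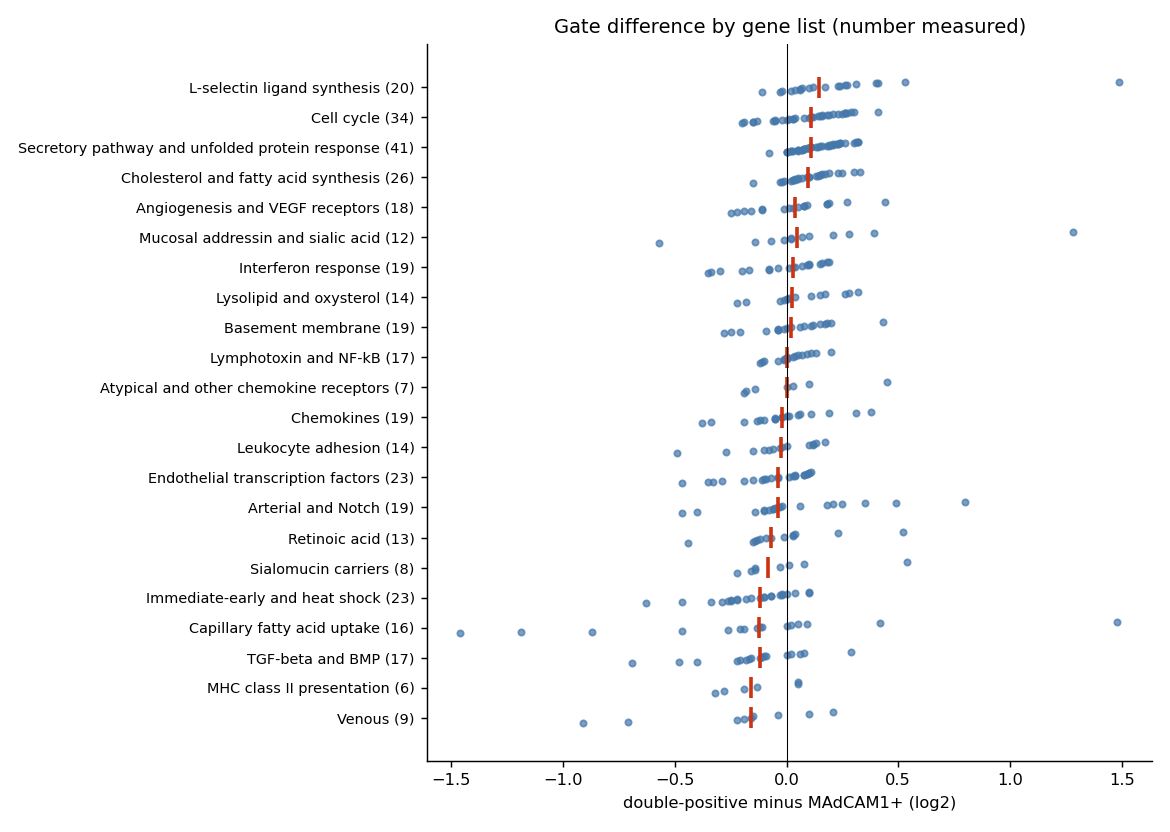
Gate difference (double-positive minus MAdCAM1+, log2, horizontal) of each measured gene in 22 lists, with the number measured in brackets. Points are genes and red lines are list medians, which run from -0.16 for venous and MHC class II genes to 0.15 for L-selectin ligand synthesis. None of the genes drawn was called.

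Markers of other cell types were set beside these results. Lymphatic endothelial markers had a median of 0.03 over 10 genes, although Lyve1, a hyaluronan receptor that read 1.67 in peripheral HEC array 1 and 3.23 to 3.89 in the other reference HEC arrays, was at 4.24 and 3.84 against 2.75 and 2.80 (1.27 ± 0.47, limma adjusted p = 1). T cell markers had a median of -0.02, myeloid markers -0.05, fibroblastic stroma markers 0.00, pericyte and smooth muscle markers -0.11 and intestinal epithelial markers -0.07. Intestinal epithelial markers had means of -0.10 to 0.01 in the 4 arrays and 0.49 to 0.77 in Peyer's patch HEC, so the Peyer's patch end of the tissue scale carried that signal and the gates did not. The pancreatic enzyme genes were high in a single array. Cpa1, a carboxypeptidase, read 3.14 in MAdCAM1+ array 3 and -0.09 in array 4, with 0.24 and 0.00 in the double-positive arrays. Each of the 11 genes had its highest value of all arrays there. Of the genes with the most negative differences, Try10 and Cel belong to this group, at 2.61 and 2.04 in array 3 and 0.42 and 0.24 in array 4. Without array 4, which leaves array 3 alone in its gate, 17 genes were called lower, 9 of these 11 among them. Without array 3, 5 genes were called, the 4 of the full fit and Adgrg6.

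Each gate was lastly compared with the reference groups over all genes. The double-positive gate differed from peripheral HEC at 188 genes (0.943% of genes, 44 higher and 144 lower) and from Peyer's patch HEC at 155 (0.777%, 80 higher and 75 lower). The MAdCAM1+ gate differed from peripheral HEC at 370 genes (1.86%, 101 higher and 269 lower) and from Peyer's patch HEC at 77 (0.386%, 37 higher and 40 lower). These counts rest on 4 peripheral and 3 Peyer's patch arrays. Which reference gave more calls within a gate turned with the fit. With array weights, whose estimation stopped short of its tolerance, the double-positive gate had 349 and 3881 called genes against peripheral and Peyer's patch HEC and the MAdCAM1+ gate 954 and 3033. With a replicate block the double-positive gate had 158 and 193 and the MAdCAM1+ gate 342 and 34. In both of these fits the double-positive gate kept fewer calls than the MAdCAM1+ gate against peripheral HEC and more against Peyer's patch HEC. The contrasts share their reference arrays, and the difference between counts was not tested. Against mesenteric capillary cells the counts were 2656 (13.3%, 1443 higher) for the double-positive gate and 2128 (10.7%, 979 higher) for the MAdCAM1+ gate. With 1 array of a gate left out the counts fell, to 103 and 60 for double-positive against peripheral HEC without arrays 1 and 2, and to 69 and 54 against Peyer's patch HEC. For the MAdCAM1+ gate they fell to 185 and 138 against peripheral HEC without arrays 3 and 4, and to 35 and 48 against Peyer's patch HEC. The double-positive count against capillary cells fell to 1723 without array 1.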

How the data were processed

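Total RNA of sorted endothelial cells was amplified and labelled for Affymetrix arrays that read whole transcripts, per the labels' protocols. The authors deposited log2 signals made with RMA and Partek, per the submitters' processing notes, which name no versions. Probe sets had been centred on a baseline not given in the sources used here (54.5% of probe sets hold an exact 0), and RMA compresses large folds. Arrays have no read depth, so their number limits the precision.

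Probe sets were named by the platform annotation: 21789 of 28856 had 1 symbol, 1621 had several and 5446 none. Probe sets of a gene were averaged (999 genes), giving 19938 genes. The 19 arrays entered 1 linear model of 7 group means in limma 3.58.1 and R 4.3.3 (12 residual and 4.62 prior degrees of freedom). Two-sided p-values of each contrast were adjusted over all genes (Benjamini-Hochberg) and read at 0.05. The fit was tested on simulated data. Alternatives varied the arrays fitted, a replicate block, normalization, array weights, prior, probe sets, a filter and the arrays left out. Genes named were the 15 largest differences in each direction that passed, filled up with genes at an unadjusted p under 0.01, plus members of the lists and fixed addressin and adhesion genes. Filling excluded clone names, receptors of smell and taste, small RNAs and antigen receptor segments, and genes whose gates overlapped. The members and the lists were chosen with earlier results of these data known. Some list members were not analysed here.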

Additional observations from a re-analysis of the deposited data

Results flagged for a closer look

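Among 47 genes checked in the 4 peripheral HEC arrays, 3 had an array that lay far from the other 3 by Dixon's test at its 95% critical value, and chance alone flags about 1 in 20 such groups. Pou2af1 read 1.25 in array 2 against 1.05 to 1.08 in the others, Lcp2 read 0.41 in array 2 against -0.01 to 0.03, and Lepr read -1.15 in array 1 against -0.27 to -0.08. All 3 values lie in a reference group and none enters the difference between the gates, although they add to the shared estimate of spread.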

How the results depend on the processing

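Each gate has 2 arrays, so precision is set by the spread shared with the other groups. The 4 calls were the same genes after centring each array on its median, with a robust prior and with either single probe set per gene. The total of 4 became 0 with only the 4 mesenteric HEC arrays, 10 with array weights (8 lower, 2 higher, 8 at least 2-fold, with the weight estimation stopping short of its tolerance) and 7 with a filter on range, all lower. Leaving out 1 array gave 3 to 17 calls (3 to 17 lower, 3 to 16 at least 2-fold). With only the 11 HEC arrays 2 genes were called higher. At an adjusted p under 0.1, 1 gene was called higher, as was 1 (Pou2af1) with arrays paired 1 with 3 and 2 with 4, a pairing chosen after seeing the data. The gates share no replicate number, and a replicate block could be fitted only through the other groups: with this replicate block 2 genes were called, both lower and at least 2-fold (Myof and Cytl1), while Fbln2 and Tacr1 did not pass (both limma adjusted p = 0.102), and the MAdCAM1+ gate differed from Peyer's patch HEC at 34 genes.

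With array weights the reference counts rose to 349 and 954 against peripheral HEC and to 3881 and 3033 against Peyer's patch HEC, for the double-positive and MAdCAM1+ gates. Leaving out 1 array of a gate gave 60 to 103, 138 to 185, 54 to 69 and 35 to 48 genes for the same contrasts, and 1723 to 1921 for the double-positive gate against capillary cells. The tissue position of the double-positive gate was 0.53 on genes at least 4-fold apart, 0.45 after quantile normalization and 0.44 to 0.50 without 1 reference array. That of the MAdCAM1+ gate was 0.62 after quantile normalization, 0.64 as a slope, and 0.60 to 0.68 without 1 reference array. The HEC positions were 1.07 and 1.03 after quantile normalization. Signs turned for genes near 0, none of them called, and the cause was not tested: Nkx2-3 (-0.39 to 0.25 without 1 array), Cd34 (-0.14 with the replicate block, -0.04 after quantile normalization, -0.17 to 0.19 without 1 array), Fut7 (-0.12), Gcnt1 (-0.01 to 0.62 without 1 array), Vcam1 (-0.08 to 0.42 without 1 array), Icam1 (-0.21 to 0.18 without 1 array) and Nr2f2 (0.18 with the replicate block, -0.22 to 0.13 without 1 array).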

Other observations

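Probe sets with several gene symbols (1621) or none (5446) were tested between the gates in a fit of all 28856 probe sets, a setting added after seeing the data. None of either kind passed an adjusted p of 0.05 by limma, with 12 and 40 of them at an unadjusted p under 0.05.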
